A study of Mus musculus with 60 samples.

Results

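The interferon response genes described here are 39 listed genes that interferons switch on or that carry the interferon signal. A member was taken from the array where a probe set carried its symbol and no other, and the brightest on average stood for a gene that had several. Of the 39, 37 had a probe set that could be named in this way, out of 18194 genes in all. Expression of Isg15 (whose probe set also names other genes) and Ifi44 was not analysed here, and these 2 enter the description of promoters only. Oas3 was above the array median on 6 of 60 arrays and did not pass the filter on low values, so 36 of the 37 entered the tests among 12791 genes.

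Interferons are secreted proteins that bind paired receptors on the cell surface and signal through JAK kinases to STAT and IRF factors in the nucleus. Type I interferons act mainly through a complex containing STAT2 and IRF9 that binds the interferon-stimulated response element (ISRE), and interferon gamma acts mainly through the gamma-activated site (GAS). The induced genes include antiviral enzymes, sensors of foreign nucleic acid, GTPases that attack pathogen vacuoles, parts of the antigen processing machinery and chemokines that attract T cells, and in tumours they are read as a sign of interferon exposure of tumour cells, stroma or infiltrating leukocytes.

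The 60 carcinomas came from 55 backcross mice (FVBBX), each the offspring of a SPRET/Ei by FVB/N hybrid crossed back to FVB/N, and every tumour was induced on dorsal skin with the carcinogen DMBA and the tumour promoter TPA. There was no untreated or interferon-treated group, so values compare carcinomas with carcinomas. Squamous cell carcinoma (SCC) was the label of 38 tumours from 35 mice (13 mice with well, 13 with moderately and 9 with poorly differentiated tumours), spindle carcinoma that of 14 tumours from 13 mice, and 8 tumours from 7 mice had no histology label. Node status was positive for 15 and negative for 19 mice, p53 was labelled mutant for 14 and not mutant for 41, and coats were agouti in 27 and white in 28. The ages of the mice were not given in the labels. All mice shared the backcross design and the treatment, and each carried its own mixture of parental alleles. The labels also gave each mouse a sex, with males and females in the series, and an origin, F1BSF1, F1BSF2, F1BSF3 or F1BSF4. What these origins stand for was not given in the labels.

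Array medians lay between 4.43 and 4.56 on the log2 scale. Xist or the Y-linked genes did not match the labelled sex on 12 arrays, among them the array with the highest interferon score. The arrays of 2 pairs of different mice (4 arrays) were more alike than any 2 arrays of 1 mouse. The 3 arrays with the largest 3′ to 5′ Gapdh difference, taken by rank, were SCC 6 (1.85), SCC 36 (0.59) and spindle 9 (0.54). Only SCC 6 stood apart, as the next array, SCC 22, had 0.48. These 3 are called the arrays of large Gapdh difference below. Tumours of 1 mouse were averaged before testing, so the mouse is the replicate.

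The members varied widely from tumour to tumour, and most of them varied together. The score of a tumour, the mean over the 37 members of the log2 value minus the gene's own mean over 60 arrays, ran from -0.998 in SCC 27 through a median of -0.02 to 2.24 in spindle 8. The next scores were 1.26 in spindle 3, 0.98 in SCC 4, 0.97 in SCC 32 and 0.94 in SCC 37. In SCC 27, 34 of the 37 members were below their own mean, and in spindle 8, 36 were above it. Spindle 8 held the highest value of 26 members and was among the 3 highest arrays for 31. The member below its own mean in spindle 8 was Ifitm1, for which this array ranked 56 from the top. The others for which it was not among the 3 highest were Isg20, Oasl1 and Ifitm2 (rank 6 each), Cxcl9 (rank 9) and Ifitm3 (rank 10).

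**Figure D1:**
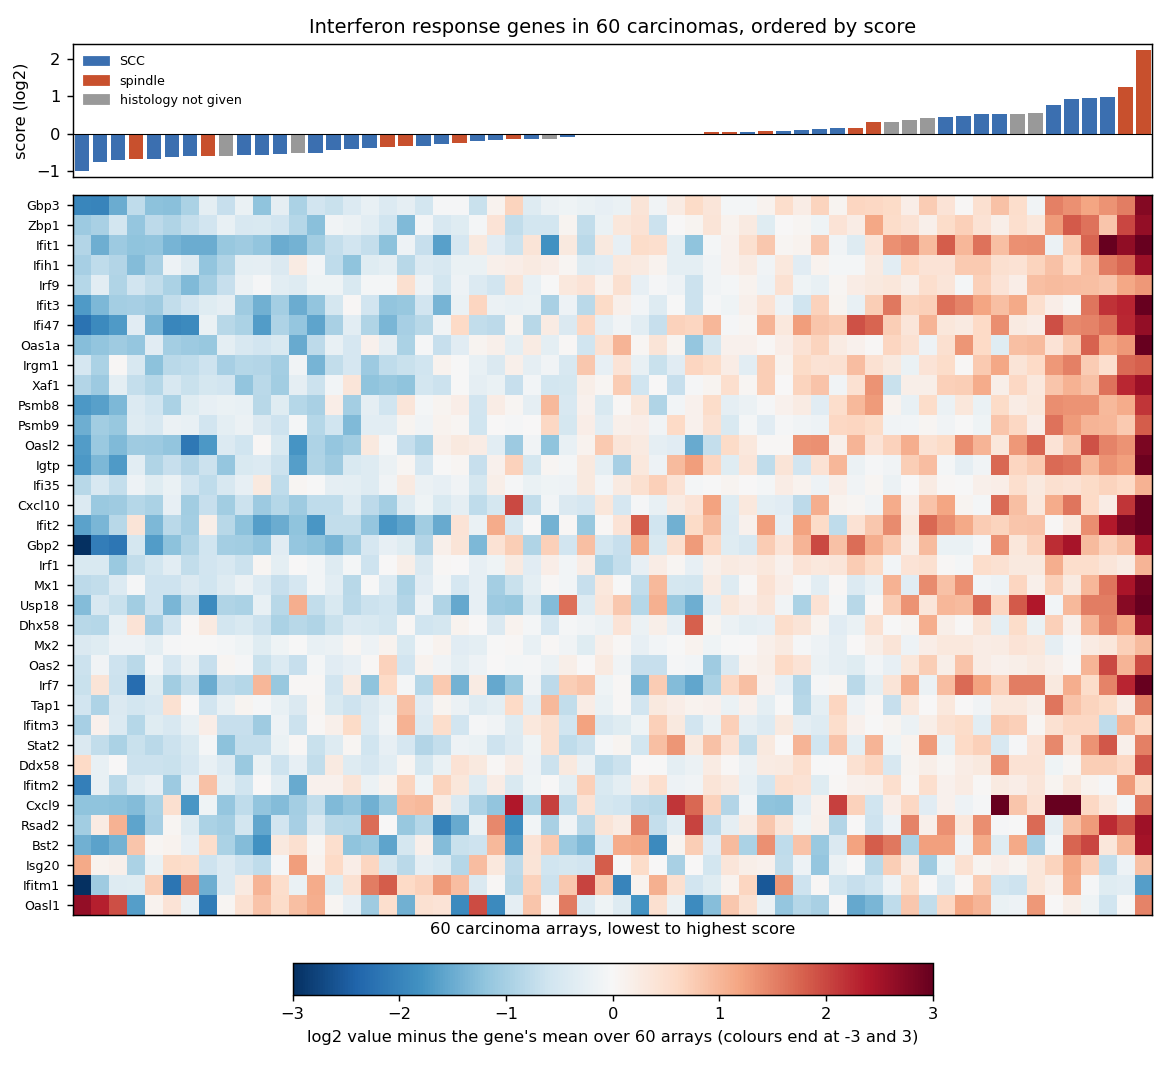
Upper panel, score of each of the 60 carcinomas (bars, log2 units, coloured by histology label); lower panel, log2 value of each of the 36 tested members minus its mean over the arrays, with arrays in order of score and genes in order of their correlation with the other members. SCC scores run from -0.998 to 0.98 and spindle scores from -0.68 to 2.24, and the lowest genes in the panel (Isg20, Ifitm1 and Oasl1) do not follow the gradient of the others.

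Several members ran from below the array median to far above it. Ifit3, an Ifit protein that works with Ifit1 in recognising foreign RNA, ran from 3.42 through a median of 4.95 to 10.19. Ifit1 had 3.28, 4.94 and 9.72 as lowest, median and highest value, Usp18, a protease that removes Isg15 from proteins and damps receptor signalling, 3.23, 4.84 and 9.15, and Ifit2 3.57, 5.35 and 9.25. The lowest values of these genes lay below every array median, so no fold is given from them. Mx1, a GTPase that restricts influenza-like viruses, was above the array median on 24 arrays only and ran from 3.50 through 4.33 to 7.42. Over mice, the SD of the median member was 0.73 against 0.39 for the median gene tested, and 34 of the 36 members were above that gene.

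Wide ranges were also found among genes of the gamma-interferon kind. Gbp2, a guanylate-binding GTPase of cell-autonomous defence, ran from 3.97 in SCC 27 through 7.14 to 9.71 in SCC 37. The chemokine Cxcl9, a ligand of the chemokine receptor Cxcr3 on T cells, had 3.47, 4.88 and 9.26 as lowest, median and highest value. Its neighbour Cxcl10 had 4.04, 4.90 and 9.18. For both chemokines the median tumour was close to the array median and a minority of tumours lay far above it. Among members above the array median on every array, the narrowest ranges were those of Ifi35 and Irf1, a transcription factor of the gamma response. Ifi35 spanned 3.69-fold (8.44, 9.26 and 10.32) and Irf1 4.65-fold (7.68, 8.84 and 9.90). The widest was that of Irf7, 43.66-fold (4.74, 7.01 and 10.19).

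Across the 55 mice, the 630 pairs of tested members had a median Pearson r of 0.49, and 576 pairs were above 0. These correlations are descriptions over tumours that share array chemistry and normalisation. Gbp3 followed the mean of the other members most closely (r = 0.88, Spearman rho = 0.86, and 0.86 without the 2 mice farthest from the median of that mean). Zbp1, a sensor of Z-form nucleic acid that can trigger necroptosis, had r = 0.87 and rho = 0.84, Ifit1 had 0.86 and 0.86, and Ifih1 (the RNA sensor MDA5) had 0.85 and 0.81. Irf9, the DNA-binding part of the type I interferon complex, had 0.84 and 0.80, while Stat2, its partner, had 0.59 and 0.64. The Stat2 values rest on 1 of 2 probe sets of similar mean (5.17 and 5.08), which had r = 0.49 with each other over the arrays.

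**Figure D2:**
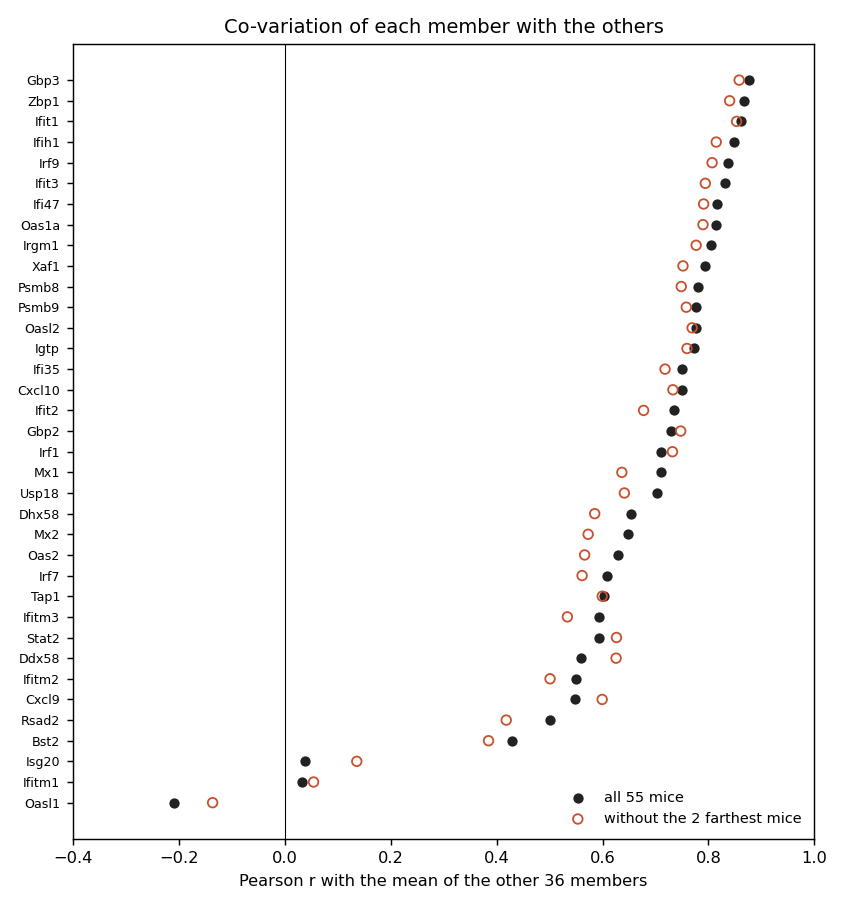
Pearson r of each of the 36 tested members with the mean of the other 36 members on the array (Oas3 included), over 55 mice (filled) and without the 2 mice farthest from the median of that mean (open). Most genes lie at 0.5 or above, and Isg20, Ifitm1 and Oasl1 lie near or below 0, at 0.04, 0.03 and -0.21.

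The GTPases (Gbp2, Gbp3, Igtp, Irgm1 and Ifi47) had a median r of 0.83 over their 10 pairs, and the antigen processing genes (the immunoproteasome subunits Psmb8 and Psmb9 and the peptide transporter Tap1) 0.76 over 3 pairs. Those 3 pairs are all close neighbours on chromosome 17, so role and place in the genome cannot be told apart for them. GTPases and antigen processing genes had a median of 0.74 with each other, and GTPases and chemokines 0.69. GTPases and the antiviral effectors had a lower median of 0.49 over 60 pairs, and chemokines with antiviral effectors 0.28 over 24. The antiviral effectors had no higher a median among themselves, 0.49 over 66 pairs, with single pairs from -0.38 to 0.91. The closest single pairs were Ifit1 with Ifit3 (r = 0.91), Ifi47 with Gbp3 (0.89), Oas1a with Oasl2 (0.89), Gbp2 with Gbp3 (0.89) and Psmb8 with Psmb9 (0.89). Of these, Ifi47 with Gbp3 and Oas1a with Oasl2 are not neighbours in the genome, nor are Irf7 and Usp18 (r = 0.85).

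Members that lie near each other in the genome (at most 10 protein-coding genes apart in the RefSeq gene table) formed 14 pairs with a median r of 0.76, against 0.48 for the other 616 pairs. Neighbours include paralogs whose probes may share sequence. The pairs that broke the rule were Oasl1 with Oasl2, next to each other on chromosome 5 with r = -0.06, and Ifitm1 with Ifitm3 (r = 0.17) and with Ifitm2 (0.38) on chromosome 7.

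Oasl1, a 2′-5′-oligoadenylate synthetase-like protein known to restrain translation of Irf7, ran against the module. Its r with the other members was -0.21 (rho = -0.21, and -0.14 without the 2 farthest mice), and its most negative pairs were with Gbp2 (-0.57), Psmb8 (-0.50) and Ifi47 (-0.48). SCC 27, the tumour with the lowest score, held the highest Oasl1 value (9.35) and the lowest Ifitm1 value (6.88). Oasl1 had r = 0.72 (rho = 0.75) with the mean of 7 keratinocyte markers (Krt5, Krt14, Krt15, Epcam, Cdh1, Trp63 and Sfn) and -0.62 (rho = -0.59) with the mean of 9 macrophage markers. Ifitm1, a membrane protein that blocks viral entry, had r = 0.62 (rho = 0.63) with the mean of 6 neutrophil markers and 0.03 with the other members. Isg20, a 3′-5′ exonuclease, had r = 0.04 with the other members, 0.33 with keratinocyte and -0.40 with fibroblast markers.

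In the RefSeq promoters (250 bases before to 50 after each annotated start, assembly GRCm38.p6) the ISRE core GAAANNGAAA, searched on both strands, was present for 17 of the 33 members with a promoter entry (51.5%), against 3.99% of 27025 genes. The GAS core TTCNNNGAA was present for 9 of 33 (27.3%), against 9.55% of all genes. The promoters of 4 members held both cores, and in 2 of these the matches overlapped. The median r with the other members was 0.74 for the 16 measured members with an ISRE match and 0.73 for the 15 without. A match is a description of these letters, and its use in the tumours was not measured.

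These promoters are shown as examples of members that followed the others and of 1 that did not. Ifit1 (chr19:34640639-34640938, plus strand) and Gbp2 (chr3:142620413-142620712, plus strand) followed the other members with r = 0.86 and 0.73. Of the chromosome 5 neighbours, Oasl2 (chr5:114896684-114896983, plus strand) followed them with r = 0.78 and Oasl1 (chr5:114922990-114923289, plus strand) did not. Each is printed 5′ to 3′, and capitals mark ISRE core matches on either strand.
Ifit1: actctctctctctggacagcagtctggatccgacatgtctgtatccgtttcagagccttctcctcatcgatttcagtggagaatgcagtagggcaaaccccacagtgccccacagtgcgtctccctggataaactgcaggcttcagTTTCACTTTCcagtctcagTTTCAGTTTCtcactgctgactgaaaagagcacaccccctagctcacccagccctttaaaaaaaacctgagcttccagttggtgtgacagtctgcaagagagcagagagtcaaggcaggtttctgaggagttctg
Gbp2: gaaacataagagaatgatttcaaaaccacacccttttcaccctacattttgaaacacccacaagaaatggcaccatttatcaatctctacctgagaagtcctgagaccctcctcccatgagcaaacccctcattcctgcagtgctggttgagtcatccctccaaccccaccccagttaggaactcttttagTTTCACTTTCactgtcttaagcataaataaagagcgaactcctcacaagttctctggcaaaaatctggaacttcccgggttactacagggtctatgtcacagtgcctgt
Oasl2: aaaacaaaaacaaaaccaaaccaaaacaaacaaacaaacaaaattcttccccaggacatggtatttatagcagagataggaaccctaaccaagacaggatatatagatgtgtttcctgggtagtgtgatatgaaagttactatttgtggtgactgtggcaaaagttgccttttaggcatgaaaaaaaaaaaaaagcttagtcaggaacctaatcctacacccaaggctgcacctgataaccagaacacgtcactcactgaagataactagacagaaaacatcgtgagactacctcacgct
Oasl1: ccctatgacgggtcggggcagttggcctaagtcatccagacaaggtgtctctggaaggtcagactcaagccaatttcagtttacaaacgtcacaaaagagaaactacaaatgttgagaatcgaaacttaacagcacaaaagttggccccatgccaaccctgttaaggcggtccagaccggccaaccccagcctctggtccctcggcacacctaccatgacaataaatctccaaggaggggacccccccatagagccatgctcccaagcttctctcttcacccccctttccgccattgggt
Ifit1 held 2 matches, which begin at -104 and -85 counted from 0 at the start site, and Gbp2 held 1, which begins at -59. Neither Oasl2 nor Oasl1 had these letters in the window, although Oasl2 followed the other members and Oasl1 did not.

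Among the genes that are not members, the 10 whose levels were most like the score were Rtp4 (r = 0.91, rho = 0.90), Irgm2 (0.89 and 0.90), AW112010 (0.83 and 0.81), Uba7 (0.83 and 0.86), Iigp1 (0.80 and 0.81), Ms4a4c (0.78 and 0.76), Gbp6 (0.78 and 0.74), Ccl5 (0.77 and 0.71), Parp14 (0.76 and 0.80) and B2m (0.75 and 0.71), each over 55 mice. Of these, all but AW112010 and Ms4a4c are on the list of other pathway genes. Uba7 activates Isg15 for conjugation, B2m is the light chain of MHC class I and Ccl5 is a T cell chemokine. For comparison, the median gene tested had r = 0.00 and the 95th percentile was 0.37.

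The upstream genes of the pathway followed the score less closely. None of the 6 ligand genes with a probe set passed the filter: Ifng ran from 2.33 through 2.58 to 3.19 and Ifnb1 from 3.05 through 3.37 to 4.11, all below the array medians. Of 6 receptor chains, 5 had r above 0 with the score (median 0.33), with Ifngr2 at 0.47, Ifngr1 at 0.29 and Ifnar1 at 0.23. The kinases Jak1, Jak2 and Tyk2 had r of 0.11, 0.26 and 0.30. Of 42 other interferon-induced genes, 38 had r above 0, with a median of 0.60.

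The markers of T and NK cells moved with the score (r = 0.66, rho = 0.61 for the mean of 8 genes, and 0.57 without the 2 farthest mice), led by Nkg7 (0.70) and the cytotoxic protease Gzmb (0.59), whereas Cd8a had -0.30. The mean of 8 genes ran from 4.38 through 4.84 to 5.91, so these markers were near the array median in most mice. Macrophage markers had r = 0.47 (rho = 0.49), markers of B and plasma cells 0.41 (rho = 0.44) and neutrophil markers -0.03 (rho = 0.00). Endothelial markers had r = 0.22, dendritic cell markers 0.22 and fibroblast markers 0.19. Keratinocyte markers had r = -0.21 (rho = -0.43). In bulk tumours, fewer cells of a type and less RNA per cell cannot be told apart, and the part of these cells in the score was not tested.

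The labels give 2 arrays for each of 5 mice, counted here as 2 carcinomas. In the sample titles SCC 3 and SCC 4 share the first number after the mouse, as do histology not given 6 and 7. Whether each of those pairs is 2 tumours or 2 samples of 1 tumour was not given. The sex markers of spindle 8 and 9 go against their label, and SCC 22 is among the 4 near-identical arrays, so whether these arrays belong to the mouse on the label was not tested. Spindle 8 and spindle 9, labelled as 1 mouse, scored 2.24 and -0.34, the largest gap, with 34 of 37 members higher in spindle 8. SCC 3 and SCC 4 scored 0.08 and 0.98, and 34 members were higher in SCC 4. The other pairs scored -0.01 and -0.26 (SCC 22 and 23), -0.32 and -0.67 (SCC 7 and 8), and 0.44 and -0.14 (histology not given 6 and 7), against an SD of 0.50 over the 55 mouse scores.

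Between spindle 8 and spindle 9, Ifit3 was 10.19 and 3.99, Ifit1 9.72 and 4.95, Usp18 9.15 and 4.24, and Cxcl10 9.18 and 4.79. The 3 Ifitm members went the other way, Ifitm1 at 8.31 and 10.57, Ifitm3 at 12.96 and 13.39 and Ifitm2 at 12.205 and 12.298. The keratinocyte markers averaged 5.55 in spindle 8 and 11.28 in spindle 9, macrophage markers 10.64 and 8.07, and T and NK cell markers 5.60 and 4.68. Spindle 9 is also among the 3 arrays ranked highest by Gapdh difference (0.54), though close to the next array, SCC 22 (0.48).

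Whether the histology of the carcinoma goes with the interferon response was asked by comparing 13 spindle with 35 SCC mice. Oasl1 and Isg20 were lower and Dhx58 higher in spindle carcinomas, and no other member passed the threshold in this fit. That is 3 of 36 members, when 26.5% of all genes tested passed (limma, Benjamini-Hochberg adjusted p under 0.05), and at an unadjusted p under 0.05 it was 7 of 36 against 37.7%. The median member differed by 0.16 against 0.02 for all genes, and the score by 0.14 against a pooled SD of 0.51. SCC mice ranged from -0.998 through -0.09 to 0.97 in score and spindle mice from -0.68 through 0.05 to 1.26, so the groups overlapped over nearly their whole range.

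Oasl1 ran from 4.82 through 6.91 to 9.35 in SCC and from 4.64 through 5.45 to 7.53 in spindle mice. The spindle mean was lower by 1.14 on the log2 scale (log2 difference -1.14, SE 0.32, adjusted p 0.00617), although the ranges overlapped. Isg20 ran from 6.58 through 7.87 to 9.57 in SCC and from 6.80 through 7.23 to 8.12 in spindle mice (-0.50, SE 0.19, adjusted p 0.0414). Dhx58, the RNA sensor LGP2, went the other way, from 4.21 through 4.94 to 6.17 in SCC and 4.60 through 5.26 to 6.94 in spindle mice (0.51, SE 0.18, adjusted p 0.0288). Without the array spindle 8, Dhx58 differed by 0.41 with an adjusted p of 0.0774. With poorly differentiated SCCs alone as the comparison, none of the 3 passed (limma adjusted p 0.429 for Oasl1, 0.478 for Dhx58 and 0.282 for Isg20), and neither did any other gene. Without the 12 arrays of mismatched sex markers, Oasl1 alone passed.

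**Figure D3:**
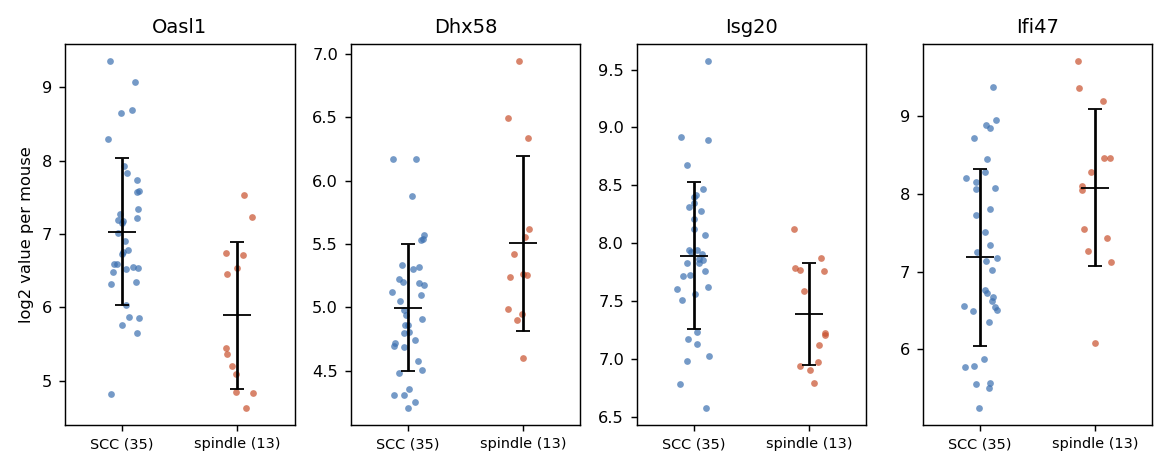
Log2 value per mouse of Oasl1, Dhx58, Isg20 and Ifi47 in 35 SCC and 13 spindle mice (points), with mean and SD (black). Oasl1 and Isg20 have lower and Dhx58 and Ifi47 higher means in spindle mice, and in each panel the groups overlap; Ifi47 did not pass the threshold.

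By role, the GTPases had the largest median difference, 0.49, with none of 5 past the threshold. Ifi47 had the largest positive value among all members (0.90, SE 0.35, adjusted p 0.0508), with 5.25 through 7.13 to 9.38 in SCC and 6.07 through 8.10 to 9.71 in spindle mice. Gbp2 had 0.78 (adjusted p 0.106) and Ifit2 0.75 (adjusted p 0.0722). Antiviral effectors had a median of 0.01 over 12 genes, with values on both sides, and Ifitm membrane proteins -0.02 over 3.

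Of 69 other genes of the pathway, 12 passed (17.4%, beside 26.5% of all genes). Of 6 receptor chains, Ifnar1 (0.40, adjusted p 0.0165) and Ifngr2 (0.58, adjusted p 0.00684) were higher in spindle mice, and Ifnlr1, the lambda interferon receptor, was lower (-0.34, adjusted p 0.0183); Ifngr1 had 0.19 (adjusted p 0.257). Jak2 was lower (-0.34, adjusted p 0.0381), 1 of 3 kinases. Of 12 sensors and adaptors, Sting1 (0.66) and Tlr7 (0.60) were higher and Ikbke (-0.44) lower. Of 42 other induced genes, 3 were higher, among them the ubiquitin ligase Herc6 (0.56) and Parp12 (0.53), 2 were lower, Ifi204 (-1.07) and the complement inhibitor Serping1 (-0.86), and 37 did not pass. None of 6 negative regulators passed.

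Cell markers changed between the same groups. All 7 keratinocyte markers were lower in spindle mice, where their mean ran from 5.44 through 7.93 to 11.17, against 4.87 through 11.03 to 11.62 in SCC. Of 9 macrophage markers C1qa, C1qc and Mertk were higher (mean 8.56 through 9.53 to 10.61 against 7.40 through 8.96 to 10.55), and 4 of 6 neutrophil markers were lower. Of 8 T and NK cell markers Cd8a alone was lower, and of 7 fibroblast markers Pdgfra and Dcn were higher and Thy1 lower. Oasl1, which followed the keratinocyte markers over all mice, was lower in the group where these were lower. The part of cell content in these differences was not tested.

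Nodal status was compared in 15 positive and 19 negative mice. No member passed the adjusted threshold, as was true of every gene tested (0%). Higher means in node positive mice were found for 32 of 36 members, beside 54.9% of all genes. The member median was 0.33 against 0.02 for all genes. At an unadjusted p under 0.05, 10 members were higher and Ifitm1 lower, 11 of 36 where 4.17% of all genes passed, and the lowest adjusted p of a member was 0.932. The members vary together, so their shared direction does not count as 36 separate measurements. The number of members under that unadjusted p was 2 without the array spindle 8 (member median 0.24), whose mouse is node positive and keeps spindle 9, 3 without the arrays of mismatched sex markers, 6 within SCC, 9 with every tumour kept and 22 with the labelled origin of the mouse as a covariate.

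Oas2, which makes the 2′-5′-oligoadenylate that activates RNase L, ran from 5.27 through 5.81 to 7.08 in node positive and 4.73 through 5.62 to 6.47 in node negative mice (0.41, SE 0.15, adjusted p 0.932). Its relative Oas1a ran from 5.94 through 7.27 to 8.80 and from 5.85 through 6.75 to 7.70 (0.58, SE 0.22, adjusted p 0.932). Ifih1 ran from 6.44 through 6.98 to 7.77 and from 5.63 through 6.65 to 7.71 (0.41, SE 0.16, adjusted p 0.932). In all 3 the node positive median was higher and the ranges overlapped. Antiviral effectors had the largest median difference by role (0.57 over 12 genes), and antigen processing genes had 0.41, while Ifitm1 had -0.71 (SE 0.32, adjusted p 0.932). The score was 0.12 (SD 0.48) in positive and -0.17 (SD 0.37) in negative mice.

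**Figure D4:**
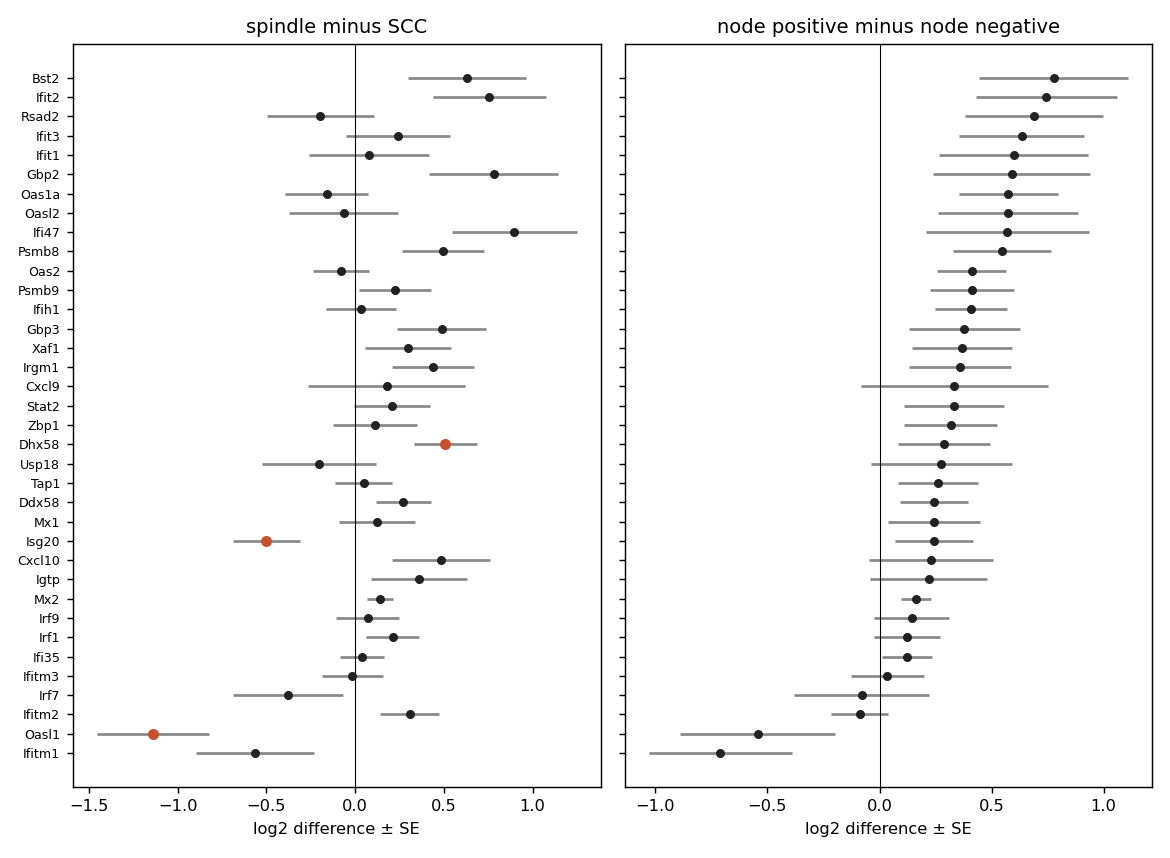
Log2 difference (points) with SE (bars) of the 36 tested members for spindle minus SCC (left, 13 and 35 mice) and node positive minus node negative (right, 15 and 19 mice), in the order of the right panel. Coloured points, 3 on the left and none on the right, passed an adjusted p of 0.05. On the right 32 of 36 points lie above 0, beside 54.9% of all genes tested.

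Markers in the node groups overlapped throughout. The T and NK cell mean had a median of 4.71 in node positive and 4.83 in node negative mice, macrophage markers 9.36 and 9.18, neutrophil markers 8.56 and 8.75, and keratinocyte markers 10.70 and 11.03. Endothelial markers had medians of 6.87 and 6.58, with a median difference of 0.41 over 5 genes, and fibroblast markers 11.28 and 11.05, with 0.25 over 7 genes. Their part in the members' difference was not tested. None of the pathway or marker genes passed the adjusted threshold, and Ifnar1 and Ifngr1 differed by 0.07 and 0.09. The nodal difference of the members was not shown to depend on histology: the interaction of node status with histology (10 and 14 SCC, 4 and 5 spindle mice) passed for no gene (0%), and at an unadjusted p under 0.05 for 0 of 36 members against 7.32% of genes, with a lowest adjusted member p of 0.727 for Oasl1.

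For the grade of SCCs, no member passed in any of the 3 comparisons, and neither did any other gene (0% each). Poorly differentiated SCCs had higher means than moderately differentiated ones for 32 of 36 members, beside 54.4% of all genes. The member median was 0.29 against 0.02 for all genes. At an unadjusted p under 0.05, 5 members were higher and Oasl1 lower, 6 of 36 against 8.51% of all genes. Rsad2 (viperin), which makes a chain-terminating nucleotide, ran from 5.93 through 7.66 to 8.44 in poorly and 5.72 through 6.49 to 7.80 in moderately differentiated tumours (0.85, SE 0.33, adjusted p 0.575). Irf9 had 0.52 (SE 0.22, adjusted p 0.575) and Usp18 0.83 (SE 0.35, adjusted p 0.575), again with overlapping ranges.

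Against well differentiated SCCs, poorly differentiated ones had a member median of 0.35 against 0.01 for all genes, with 0 of 36 members under an unadjusted p of 0.05 where 5.37% of genes were. That number was 9 with the labelled origin as a covariate (member median 0.49), 4 without the 3 arrays of large Gapdh difference and 4 without the arrays of mismatched sex markers. Psmb8 ran from 7.89 through 8.48 to 9.72 in poorly and 6.74 through 8.04 to 8.91 in well differentiated tumours (0.61, SE 0.31, adjusted p 0.889). Gbp2 had 0.97 (SE 0.51) and Zbp1 0.54 (SE 0.29), both with an adjusted p of 0.889. Moderately and well differentiated tumours differed by a member median of -0.04 (0.17 with the labelled origin as a covariate), with 0 of 36 members under an unadjusted p of 0.05 against 2.49% of genes, and the smallest p values belonged to Ifi35 (-0.22), Isg20 (0.34) and Ifitm3 (0.24). The 3 comparisons share groups, and p53 was labelled mutant in 5 of 9 mice with poorly and 1 of 13 with well differentiated SCC. Macrophage markers had a median difference of 0.60 for poorly minus moderately and 0.41 for poorly minus well differentiated tumours, with none past the threshold.

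**Figure D5:**
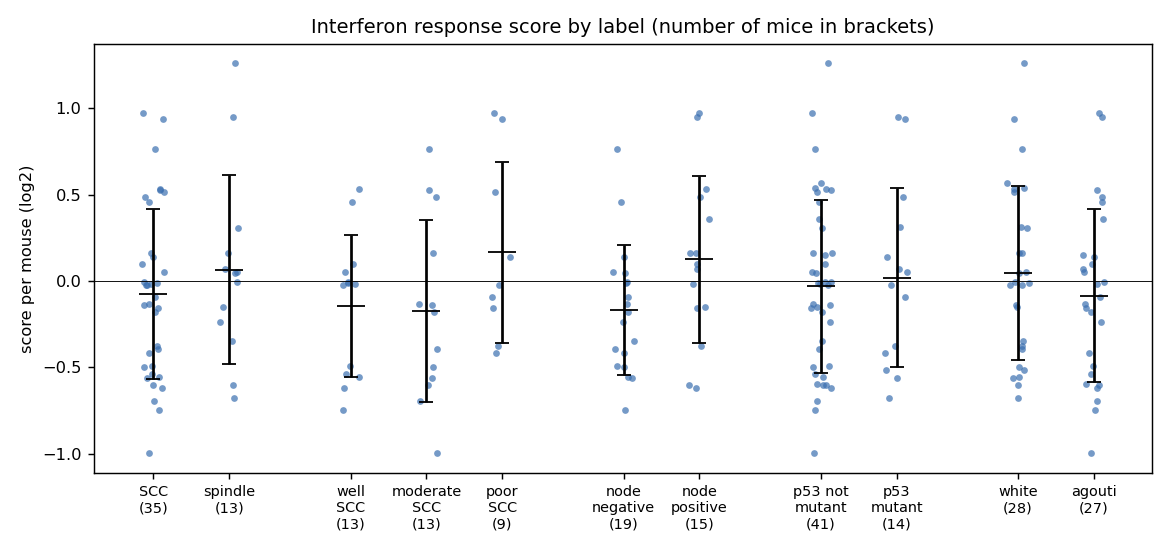
Interferon response score per mouse (points, log2 units) with mean and SD (black) by histology, SCC grade, nodal status, p53 label and coat colour. Groups overlap in every comparison; the means differ by 0.34 between poorly and moderately differentiated SCC and by 0.29 between node positive and node negative mice, and by less in the other pairs apart from poorly and well differentiated SCC (0.31).

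The p53 label did not separate the members. None of 36 passed, when 0.281% of all genes did (36 genes), and at an unadjusted p under 0.05 it was 0 of 36 against 11.2%. The scores were 0.02 (SD 0.52) in 14 mutant and -0.03 (SD 0.50) in 41 other mice. The smallest p values belonged to Isg20 (0.34, SE 0.19, adjusted p 0.518), Usp18 (0.53, SE 0.32, adjusted p 0.560) and Mx1 (0.28, SE 0.20, adjusted p 0.642). Usp18 ran from 4.08 through 5.52 to 6.77 in mutant and 3.23 through 4.66 to 7.84 in other mice. The interaction of the p53 label with histology passed for no gene (0%) and, unadjusted, for 0 of 36 members against 6.23% of genes.

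Coat colour marks the inherited allele at Tyr on chromosome 7, where white mice carry FVB/N alleles only and agouti mice a Mus spretus allele. No member and no other gene passed (0%). At an unadjusted p under 0.05, 3 of 36 members were lower in agouti mice, against 6.02% of all genes in either direction. Means were lower in agouti mice for 28 of 36 members, where 50% of all genes were above 0. The member median was -0.16 against -1e-04 for all genes, and the score differed by -0.13 against a pooled SD of 0.50. The members vary together, so this shared direction does not count as 36 separate measurements. Ifitm1, itself on chromosome 7, ran from 6.88 through 9.59 to 10.90 in agouti and from 9.14 through 10.38 to 12.01 in white mice (-0.83, SE 0.25, unadjusted p 0.00128, adjusted p 0.792). No white mouse was below 9.14. Ifi35 had -0.23 (SE 0.10, adjusted p 0.792) and Irf9 -0.29 (SE 0.14, adjusted p 0.827).

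The other members tested on chromosome 7 were Ifitm2 (-0.17, adjusted p 0.886), Ifitm3 (-0.16, adjusted p 0.893), Irf7 (-0.28, adjusted p 0.907) and Isg20 (0.01). A Mus spretus allele that differs from the probe sequence can lower a signal without a change in RNA, and probe sequences were not used here. The first promoter windows of Ifitm1 and Isg20 begin at bases 140967826 and 78913174 of chromosome 7. Coat shows the allele at Tyr only, and alleles at the members themselves were not among the labels. The paper reports frequent copy number gains of the distal part of this chromosome in these carcinomas. Whether distance from Tyr or copy number plays a part in the coat differences was not tested. Within the whole set of members, the widest gap between sorted mouse values with at least 10 mice on each side was a median of 0.21 SD, the same as for all genes tested (0.21), and the largest, for Ifit1 (0.34 SD) and Cxcl10 (0.34 SD), lay below the 95th percentile of all genes (0.36).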

How the data were processed

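Total RNA of 60 carcinomas was measured on Affymetrix mouse expression arrays. The values deposited by the authors are log2 expression values normalised together by RMA, which corrects background, quantile normalises and summarises probes into probe sets. The software version was not given in the sources used here. Of 45101 probe sets, 34958 carried 1 gene symbol, 932 several and 9211 none in the platform annotation, and 34754 of the single symbols matched the RefSeq list of genes. The number of mice limits the precision.

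From the deposited log2 values, a single probe set a gene (highest mean) was kept, giving 18194 genes, and the 12791 that exceeded the median of the array in 8 or more tumours were tested. Tumours of 1 mouse were averaged. Groups were compared with limma 3.58.1 (lmFit and eBayes, R 4.3.3, statmod 1.5.0, data.table (1.17.8)) over all 12791 genes with Benjamini-Hochberg adjustment at 0.05, and grades were fitted in 1 model. The script was tested on simulated data. Comparisons share mice and are not independent of each other. Correlations and figures used Python 3.11.15, numpy 2.4.6, pandas 2.3.3, scipy 1.17.1 and matplotlib 3.10.9.

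The members and the gene lists were chosen with earlier results of these data known. In each comparison the text names the members past the threshold, or the 3 of smallest p where none passed, with the chromosome 7 members for coat colour, the 10 genes most like the score, and pathway genes past the threshold (up to 4 a class, with Ifng, Ifnb1, Ifnar1 and Ifngr1 in any case). Other members were named for their range, correlation or place after their values were seen. Alternatives changed the filter, the probe set rule, the scaling, the variance model, the test (a SAM-type statistic with 100 permutations at 5% false discovery), covariates and the arrays used.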

Additional observations from a re-analysis of the deposited data

Results flagged for a closer look

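Sorted values of each member and of the score were examined in the 9 poorly differentiated SCC mice and the 7 mice without a histology label, 76 groups of values in all, for a highest or lowest mouse far from the rest. There were 3 such values, and chance alone is expected to give about 1 such value in every 20 groups. Cxcl9 was 9.26 in the highest poorly differentiated SCC (SCC 37), with the next mouse at 5.84. Oas2 was 6.81 in its highest poorly differentiated SCC, with the next mouse at 6.01. Ifitm2 was 10.10 in its lowest mouse without a histology label, with the next at 11.33.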

How the results depend on the processing

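The count of members past the threshold for spindle against SCC, 3 in the report, was 1 without the arrays of mismatched sex markers, 0 with poorly differentiated SCCs alone (where 0 of all genes passed) and 8 with the SAM-type statistic, and the causes were not tested. Other members passed as higher in spindle mice under some settings: Ifi47 with the stricter filter (limma adjusted p 0.0494) and without the 3 arrays of large Gapdh difference (0.0283), Mx2 in the quantile normalised table (0.0381) and Ifit2 without the 4 near-identical arrays (0.0406). The SAM-type statistic called 0 members in the other comparisons. Isg20 did not pass for spindle against SCC without the filter (limma adjusted p 0.0549), with every tumour kept (0.0725), with sex as a covariate (0.0523), without the 3 arrays of large Gapdh difference (0.0693), without those of mismatched sex markers (0.058) or without the 4 near-identical arrays (0.057). Dhx58 did not pass without the arrays of mismatched sex markers (0.0939) or without spindle 8 (0.0774). The difference of Isg20 between coats, 0.01, changed sign with every tumour kept (-0.002), without the near-identical arrays (-0.0419) and without spindle 8 (-0.0257). Leaving out the near-identical arrays or spindle 8 was chosen after seeing the data. The count for spindle against SCC was 2 without the filter and 4 with the stricter filter, which were taken as similar to 3. Of the other planned values, 194 for whole comparisons and 305 for single members were taken as unchanged. These stayed on their side of the threshold, kept a similar count of members or moved by less than the spread. Among these, the member median changed sign for moderately against well differentiated SCC with the labelled origin as a covariate (0.17 in place of -0.04), and, outside the planned settings, for p53 without spindle 8 (-0.06 in place of 0.04). No paired analysis was possible because the replicate numbers only name the tumours within a group and tie none of them across groups. Ligand genes and Oas3 lay near the low end of the signal, which limits what these arrays can show of them.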

Other observations

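The 7 mice without a histology label entered no histology comparison. Their scores ran from -0.60 through a median of 0.31 to 0.57, within the range of both SCC and spindle mice. Of the members, 11 had further probe sets, 17 in all, of which 9 exceeded the median of the array in 8 or more tumours. Their correlation with the probe set used ran from -0.16 for Xaf1 to 0.99 for Gbp2 over the 60 arrays.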
